A study of Rattus norvegicus with 35 samples.

Results

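The 38 features described here were read in the rat colon more than once and never in the faeces. They were chosen by their measured counts: a feature was taken when it had a count above 0 in at least 2 of the 18 colon libraries and a count of 0 in all 17 faecal libraries. The table holds 1073 features, of which 38 (3.54%) met the rule. Of the 598 features read in colon, 273 were read in at least 2 colon libraries, and the 38 were 13.9% of these. The absence from faeces is therefore what chose the features and is no finding about them.

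The libraries are amplicons of part of the bacterial 16S ribosomal RNA gene from rats (Rattus norvegicus), sequenced to ask whether the footshock model suits work on gut and brain in post-traumatic stress disorder. There were 10 libraries of control colon (numbered 1 to 10), 8 of colon from rats labelled Shocked (11 to 18), 9 of control faeces and 8 of shocked faeces. Both treatments were sampled in the same 2 ways, and no allele or drug is named in the labels. The labels do not name the strain, sex or age of the rats, the number and strength of the shocks, or the animal behind each library. The p-values below therefore measure only the spread between these libraries, which may be technical. The labels also do not say whether a colon sample was wall, mucus or content. Faecal number 9 was not analysed here.

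The 16S ribosomal RNA gene is carried by all bacteria and has stretches that vary between kinds of bacteria, so a read of it can stand for the organism it came from. A feature is a group of reads taken as one sequence, and one organism can give more than one feature because many genomes carry several copies of the gene. Bacteria that live in the mucus at the gut wall are known to differ in part from those carried in the faeces. The files give each feature a 32-character code and no taxon or sequence, so neither can be named for any of the 38. Features are ranked here by their mean share of reads over the 18 colon libraries, and only the leading pair is given by code.

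Colon libraries were shallow and uneven. Totals ran from 638 to 16155 reads in control colon (median 4093, n = 10) and from 448 to 9418 in shocked colon (median 1824.5, n = 8). The lowest count above 0 in the table is 2, so "read" means at least 2 reads and a 0 may hide 1 read. The floors and intervals below cover counting error only, because reads from amplification without molecular identifiers are not independent molecules. Colon control 1, the deepest colon library, lay closer to the faecal libraries than to the other colon libraries: its mean Bray-Curtis distance, which runs from 0 for identical shares to 1 for no shared feature, was 0.483 to the faecal libraries other than faeces control 1 and 0.681 to colon. The other 17 colon libraries had mean distances to colon of 0.510 to 0.667. Faeces control 1 stood at 0.955 from the other faecal libraries. Whether the labels of the libraries numbered 1 were exchanged was not tested, and an exchange would change which features meet the rule. Main values are therefore also given without colon control 1.

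Most of the 38 features were rare. Of these, 27 were read in exactly 2 colon libraries, 5 in 3, 2 in 4 and 1 in 5. The remaining 3 stood apart: 1 was read in 13 and 2 in 14 of the 18 libraries. No feature without faecal reads fell between them, since all 54 features read in 6 to 12 colon libraries were also read in faeces. Among features read in 2 colon libraries, 27 of 95 (28.4%) had no faecal reads. The share was 5 of 47 (10.6%) at 3 libraries, 2 of 36 (5.56%) at 4 and 1 of 14 (7.14%) at 5. At 13 to 17 libraries it was 3 of 21 (14.3%), and all 6 features read in every colon library were read in faeces.

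The rule has a threshold on each side. The 27 features just inside it had a median of 26 reads in all and a median mean share of 0.0277% (0.00285 to 0.152%). Just outside were 189 features read in 1 colon library and in no faecal library, with a median of 7 reads and a median mean share of 0.00745% (highest 0.0868%). On the faecal side, 48 features were read in at least 2 colon libraries and in exactly 1 faecal library, where they had 5 to 457 reads (median 31). Those 48 reached at most 9 colon libraries and held 4.65% ± 3.49 (SD, n = 18) of colon reads. A single faecal library could thus decide membership: without faeces control 3 the rule took 57 features instead of 38, while without both libraries numbered 1 it took 42.

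**Figure D1:**
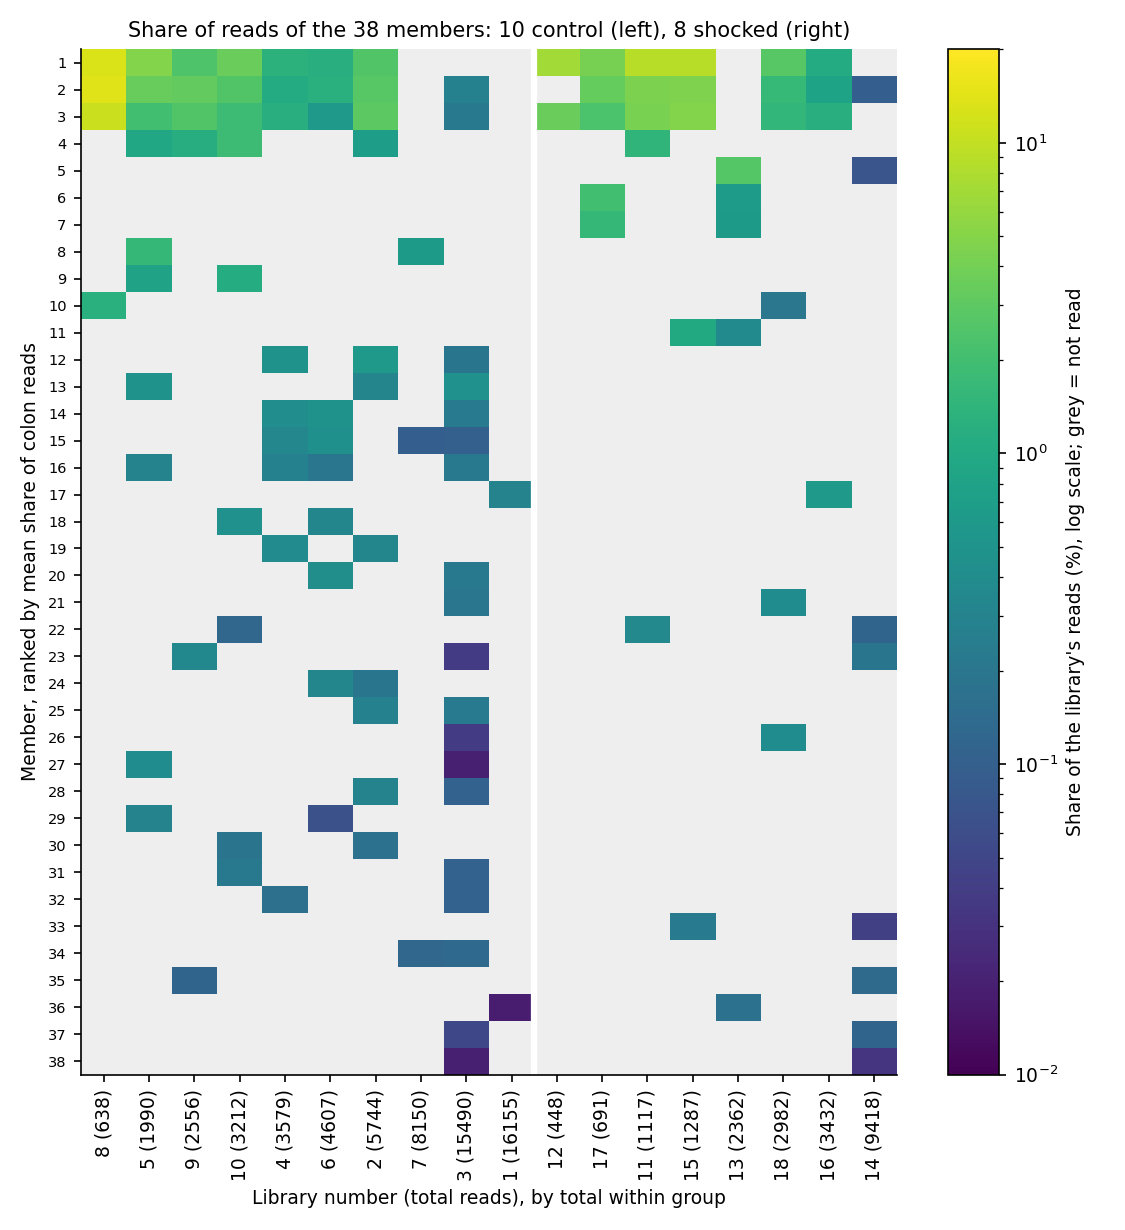
Share of reads (percent, colour on a log scale) of each of the 38 features (rows, ordered by mean colon share) in each of the 18 colon libraries (columns, by group). The 3 rows at the top are filled across most libraries, while the 35 rows under them are mostly empty and densest in colon control 3.

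The 38 features held 3975 of 83858 colon reads (4.74%). As a mean over libraries, which gives shallow libraries equal weight, they held 10.1% ± 9.37 (SD, n = 18). In controls the summed share was lowest at 0.322% in control 1, had a median of 7.79% and was highest at 39.0% in control 8. In shocked libraries it was lowest at 0.807% in shocked 14, had a median of 8.70% and was highest at 19.4% in shocked 11. The groups overlapped almost entirely. The highest value came from a library of 638 reads, for which the exact binomial (Clopper-Pearson) 95% interval was 35.2 to 42.9%. The deepest libraries of each group, control 1 with 16155 reads and shocked 14 with 9418 reads, were those with the lowest shares.

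The number of these features per library ran from 2 to 19. In controls it was lowest in control 1, with 2, and control 7, with 3. It was highest in control 3, with 19, ahead of control 2 with 11. In shocked libraries it ran from 2 in shocked 12, which had 448 reads, to 8 in shocked 14. Every colon library held at least 2. As a percentage of the features read in a library, the 38 were 7.90% ± 3.41 (SD, n = 10) in controls and 7.47% ± 2.31 (SD, n = 8) in shocked libraries.

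The 3 leading features held most of these reads, 2568 of the 3975 reads (64.6%). By mean colon share they ranked 7, 9 and 12 among all features, while the member ranked 4 stood at 50 and the member ranked 5 at 94. Of the 27 features read in at least 13 colon libraries, these were the 3 with no faecal reads. They were thus among the common features of the colon libraries, and the other 35 were not.

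The leading feature, 1e5252f7f059d825508ebf3880dffd92, was read in 13 colon libraries, 7 control and 6 shocked. In controls its share was 0% in control 1, control 3 and control 7, had a median of 1.90% and reached 13.01% in control 8. In shocked libraries it was 0% in shocked 13 and shocked 14, had a median of 3.47% and reached 8.78% in shocked 15. Where it was read, it had 29 to 144 reads. It was thus absent from the 5 libraries that include the 4 deepest, and present in the 6 libraries of 1990 reads or fewer. The mean share was 2.89% ± 3.90 (SD, n = 10) in controls, or 1.76% ± 1.71 (SD, n = 9) without control 8, and 4.06% ± 3.71 (SD, n = 8) in shocked libraries.

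The member ranked 2, 12c4cf4a9b6a4541ef111f02191bae96, was read in 14 libraries, 8 control and 6 shocked. Its control shares ran from 0% in control 1 and control 7 through a median of 1.91% to 13.9% in control 8. Its shocked shares ran from 0% in shocked 12 and shocked 13 through a median of 1.21% to 4.58% in shocked 15. Where it was read it had 9 to 159 reads, the lowest in shocked 14 and the highest in control 2. The mean was 2.86% ± 4.11 (SD, n = 10) in controls, or 1.63% ± 1.40 (SD, n = 9) without control 8, and 1.86% ± 1.99 (SD, n = 8) in shocked libraries.

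The member ranked 3 was also read in 14 libraries, 8 control and 6 shocked. Its control shares ran from 0% in control 1 and control 7 through a median of 1.504% to 10.8% in control 8. Its shocked shares ran from 0% in shocked 13 and shocked 14 through a median of 1.93% to 4.82% in shocked 15. It had 16 to 168 reads where it was read, with the highest again in control 2. The mean was 2.21% ± 3.20 (SD, n = 10) in controls, or 1.26% ± 1.12 (SD, n = 9) without control 8, and 2.23% ± 1.87 (SD, n = 8) in shocked libraries. For each of the 3 leading features the SD within a group was close to or above its mean, and control and shocked shares overlapped.

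The 3 leading features were mostly read together. All 3 were read in 12 of the 18 libraries, 2 of them in control 3 and shocked 12, and 1 in shocked 14. None was read in control 1, control 7 or shocked 13, where 3 reads would have been a share of 0.0186%, 0.0368% and 0.127%. The features ranked 1 and 3 shared 13 of the 14 libraries in which either was read, a Jaccard index of 0.929. The index was 0.867 (13 of 15) for the features ranked 2 and 3, and 0.8 (12 of 15) for those ranked 1 and 2.

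Where a pair was read in the same library, its reads lay within a few-fold of each other. Over the 12 libraries with both, the feature ranked 1 had 1.26 times the reads of the feature ranked 2 (geometric mean, range 0.759 to 1.96). It had 1.51 times those of the feature ranked 3 (0.857 to 2.40, 13 libraries). The feature ranked 2 had 1.19 times those of the feature ranked 3 (0.667 to 2.07, 13 libraries). In control 2, for example, the 3 had 144, 159 and 168 reads, and in shocked 18 they had 82, 48 and 46. These ratios leave out the libraries in which only 1 of a pair was read, such as control 3 with 0, 44 and 33 reads of the 3 and shocked 12 with 31, 0 and 16.

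Among the 95 features read in at least 5 colon libraries, the pair whose presence was most like that of the feature ranked 1 were those ranked 3 and 2. The next features, which were read in faeces too, had an index of 0.765 with it. For the feature ranked 3, the nearest were those ranked 1 and 2, followed by features at 0.824. For the feature ranked 2, the feature ranked 3 was nearest, but 2 features read in 17 colon libraries and in faeces followed at 0.824, ahead of the feature ranked 1. Features read in nearly every library reach a high index with any common feature, so these values are a description of shared libraries.

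The share of the 3 leading features fell with the depth of the library. For the feature ranked 1, Pearson's r between its share and the log10 of the library total was -0.794 (two-sided permutation p = 2e-05, Benjamini-Hochberg adjusted over the 3 features 6e-05, n = 18). Its Spearman rho was -0.831 (two-sided permutation p = 1e-05, the smallest that 100000 resamples can give, adjusted 3e-05). For the feature ranked 2, r was -0.543 (permutation p = 0.0121, adjusted 0.0121) and rho -0.542 (permutation p = 0.0226, adjusted 0.0226). For the feature ranked 3, r was -0.690 (permutation p = 0.00036, adjusted 0.00054) and rho -0.760 (permutation p = 0.00046, adjusted 0.00069). All 3 thus took a larger share of shallow libraries. Without shocked 12 and control 1, whose totals were farthest from the median, r was -0.793, -0.706 and -0.706. Without control 1 alone, rho was -0.815, -0.491 and -0.732 (permutation, adjusted p = 0.00048, 0.0471 and 0.00175).

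The relation passed the test within the controls and did not pass it within the smaller group of shocked libraries. Within the 10 controls, rho was -0.890, -0.894 and -0.784 for the features ranked 1, 2 and 3 (permutation, adjusted p = 0.00217, 0.00217 and 0.00957). Without control 1 the values within controls were -0.862, -0.867 and -0.717. Within the 8 shocked libraries, rho was -0.683, -0.144 and -0.683 (exact permutation, adjusted p = 0.109, 0.736 and 0.109). Whether the relation differed between the groups was not tested. In the libraries where each feature was read, rho was -0.813 (n = 13), -0.877 (n = 14) and -0.754 (n = 14), so the relation was also present with the zeros left out.

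**Figure D2:**
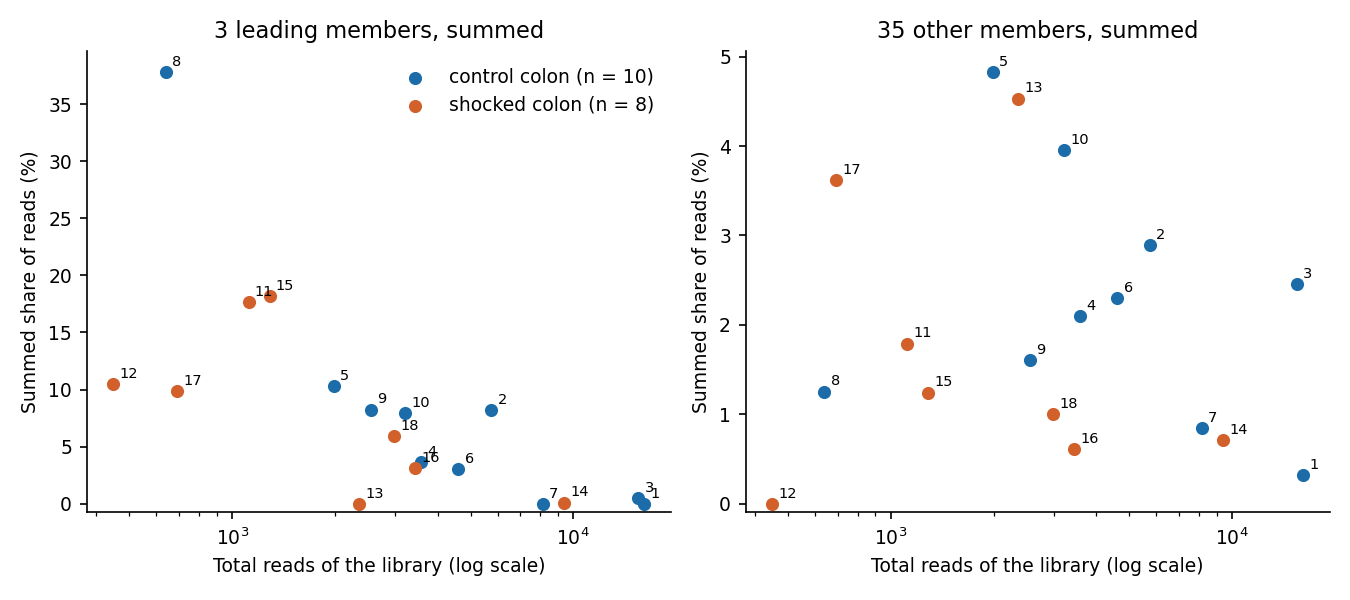
Summed share of reads (percent) against the library total (reads, log axis), with 1 point per colon library, coloured by group. The left panel sums the 3 leading features and the right panel the other 35. In the left panel control 8, with 638 reads, is highest and the deepest library, control 1, is at 0. In the right panel control 5 is highest, at 4.82%.

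The reads of the leading features were compared with the totals of the same libraries. Where read, the feature ranked 1 differed only 4.97-fold between its lowest and highest library, with a coefficient of variation (SD over mean) of 47.1%. The features ranked 2 and 3 differed 17.7-fold and 10.5-fold, with coefficients of 61.5% and 70.8%. In the 12 libraries that held all 3, their summed reads ran from 68 to 471, a 6.93-fold range with a coefficient of variation of 50.2%. The totals of those 12 libraries had a 9.0-fold range and a coefficient of 60.0%, so reads and totals varied by similar amounts there.

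**Figure D3:**
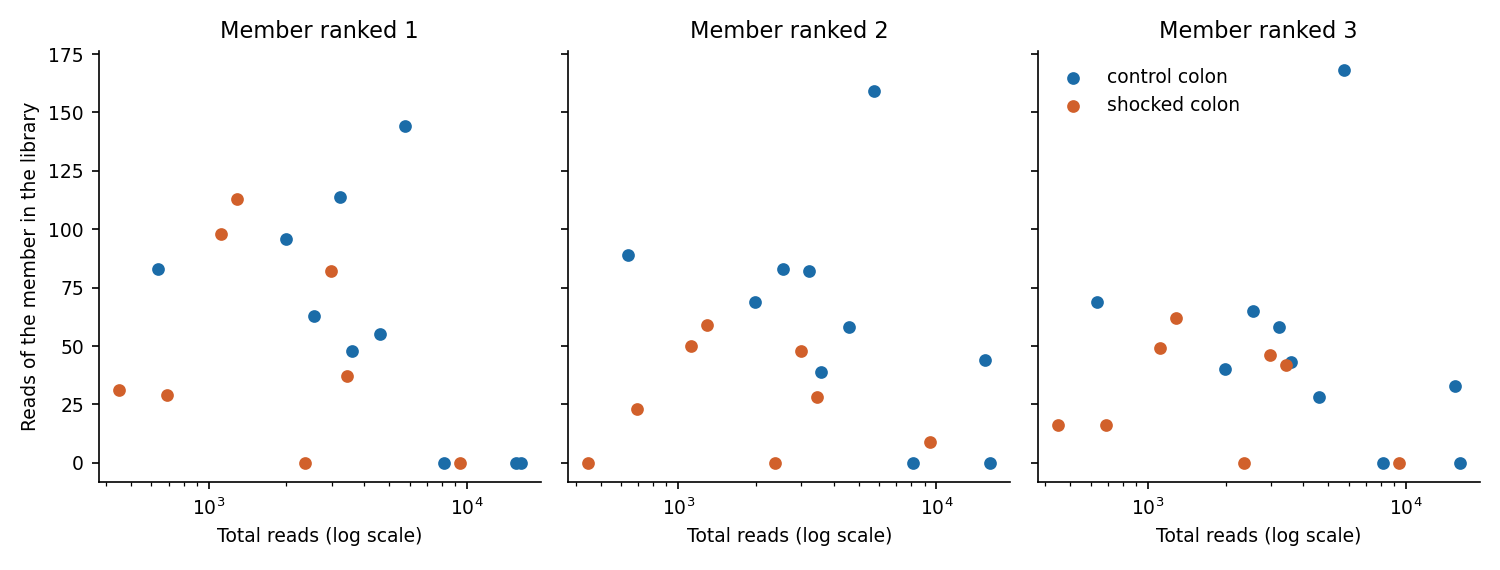
Reads (linear axis) of the 3 leading features against the library total (reads, log axis) in the 18 colon libraries. Where a feature was read, its points lie between 9 and 168 reads at library totals from 448 to 15490. Libraries in which it was not read lie at 0, among them control 1, the deepest, for all 3 features.

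The same 2 measures were taken for the other common features. Of 40 features read in at least 9 colon libraries, 37 were also read in faeces. Across the 18 colon libraries, the reads of those 37 had a median rho with the total of 0.680 (-0.0908 to 0.921), while rho was -0.389, -0.197 and -0.312 for the features ranked 1, 2 and 3. The 3 leading features thus had the lowest 3 values of the 40. For shares the 37 had a median rho of 0.169 (-0.510 to 0.729), and the 3 again lay below them, the feature ranked 2 by little (-0.542). Without control 1 the reads of the 37 had a rho of 0.018 to 0.94 and those of the 3 had -0.29, -0.084 and -0.20. Where read, the 37 differed by a median of 27-fold (7 to 358.7) between their lowest and highest library, with a median coefficient of variation of 115% (69.2 to 245.6%). These ranges overlap the values of the leading 3: 11 of the 37 had a smaller fold than the feature ranked 2, and 1 had a lower coefficient than the feature ranked 3. The points share their libraries and depths, so these values are given with no test.

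**Figure D4:**
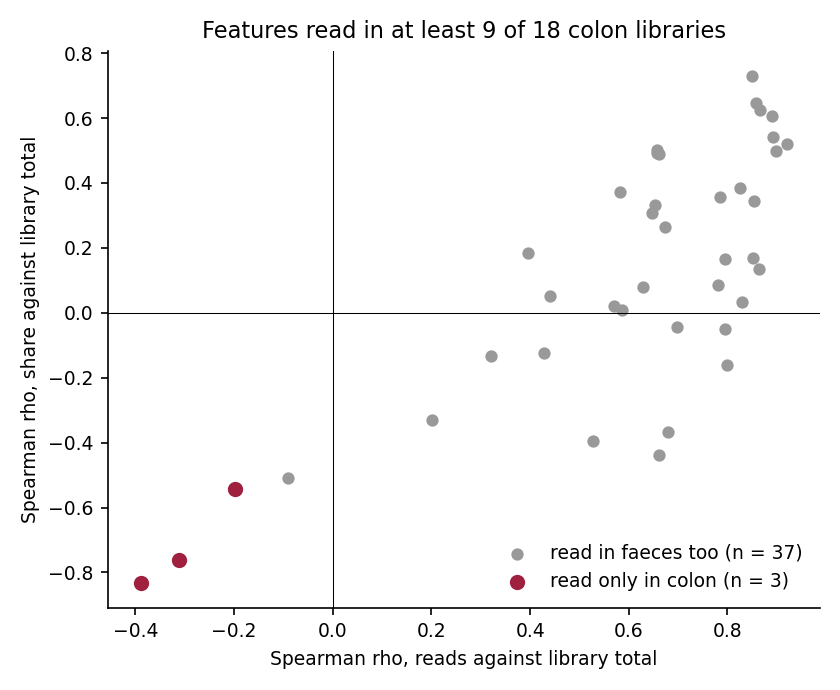
Spearman rho with the library total, for the share and for the reads of each of the 40 features read in at least 9 of the 18 colon libraries. The 3 leading features without faecal reads have the lowest values on both axes, and the nearest of the 37 features also read in faeces (-0.510 for the share, -0.0908 for the reads) lies close to the feature ranked 2 (-0.542 and -0.197).

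The summed share of all 38 was mostly that of the leading 3. Its rho with the total was -0.808, and that of the leading 3 was also -0.808 (-0.772 and -0.787 without control 1). The other 35 together had a rho of -0.127, and their share stayed low in every library, from 0% in shocked 12 to 4.82% in control 5 (mean 2.003% ± 1.45, SD, n = 18). Over all 18 libraries their reads and their number tended to be higher in deeper libraries. The Spearman coefficient with the total was 0.643 for their reads and 0.590 for the number of them read, or 0.738 for the number without control 1. Within the controls the number had 0.239, or 0.557 without control 1, and within the shocked libraries 0.586. For the number expected in equal draws of 1000 reads it was 0.186 (n = 15), or 0.429 without control 1. No p is given for these sums and counts, since they run over a set of features that was chosen as a set.

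The member ranked 4 was the only other feature of the 38 read in 5 libraries. Its shares were 0.714% in control 2, 0.955% in control 5, 1.13% in control 9, 1.84% in control 10 and 1.43% in shocked 11, and it was at 0 in the other 13. These rest on 41, 19, 29, 59 and 16 reads. All 5 libraries also held the leading 3. The mean share was 0.464% ± 0.661 (SD, n = 10) in controls and 0.179% ± 0.506 (SD, n = 8) in shocked libraries.

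The other 35 features, the member ranked 4 among them, rarely appeared together. They held 1407 reads, 1.68% of all colon reads. Of their 595 pairs, 353 (59.3%) shared no library, 207 shared 1, 32 shared 2 and 3 shared 3. The 27 features read in 2 libraries fell on 23 different pairs of libraries. Only 4 pairs of features had exactly the same libraries, and all 4 were features read in 2 libraries. The members ranked 6 and 7, for example, were both read in shocked 13 and shocked 17, with 16 and 14 reads for the former and 15 and 11 for the latter.

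A single deep library carried many of them. Colon control 3, with 15490 reads, held 17 of the 35, and 11 of the 27 features read in 2 libraries had control 3 as one of the pair. Of the 7 features read in 3 or 4 libraries, 6 were read in control 3. Without that library the rule took 27 features. Control 1, which was slightly deeper, held 2 of the 35, and shocked 12, the shallowest library, held none. Depth and control 3 move with these counts, and their part in the co-occurrence was not tested.

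By treatment, 19 of the 35 (54.3%) were read in controls alone, 5 (14.3%) in shocked libraries alone and 11 in both. Of 157 features read in 2 to 5 colon libraries and also in faeces, 62 (39.5%) were read in control colon alone. A further 13 (8.28%) were read in shocked colon alone. All of the leading 3 were read in both groups. A feature read in few libraries falls in 1 group more often, so the comparison was also made at equal prevalence. Of the 27 features read in exactly 2 libraries, 14 were read in controls alone and 5 in shocked libraries alone. Of 68 features read in exactly 2 colon libraries and also in faeces, 31 (45.6%) were read in control colon alone and 10 (14.7%) in shocked colon alone. Controls made up 55.6% of the colon libraries and 74.1% of the colon reads. Of the 82 times that 1 of the 35 was read in a library, 60 (73.2%) were in controls. Control 3 alone gave 17 of these 60. In equal draws of 1000 reads the expected number of the 35 was 5.53 ± 3.08 (SD, n = 9) in controls, or 6.07 ± 2.78 (SD, n = 8) without control 1, and 2.84 ± 1.48 (SD, n = 6) in shocked libraries. The raw numbers were 6 ± 4.55 (SD, n = 10) and 2.75 ± 2.25 (SD, n = 8). Control 3 was highest on both counts, with 11.2 in the draws and 17 raw, ahead of control 2 with 7.59 and 8. The member ranked 5 was the most abundant one read in shocked libraries alone, with 63 reads (2.67%, the largest share of any of the 35) in shocked 13 and 7 reads in shocked 14.

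Control and shocked libraries did not separate on any summed share of the 38. The summed share was 10.2% ± 11.3 (SD, n = 10) in controls, or 7.02% ± 5.22 (SD, n = 9) without control 8, and 9.85% ± 7.10 (SD, n = 8) in shocked libraries. Without control 1 the control mean was 11.3% ± 11.4 (SD, n = 9). From pooled reads the summed share was 4.59% in controls and 5.17% in shocked libraries. The leading 3 held 7.96% ± 11.2 (SD, n = 10) in controls, or 4.65% ± 4.07 (SD, n = 9) without control 8, against 8.16% ± 7.18 (SD, n = 8) in shocked libraries. The other 35 held 2.26% ± 1.38 (SD, n = 10) and 1.69% ± 1.58 (SD, n = 8). For each of these sums the means were closer together than 1 SD of either group.

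Controls held more of the 38 per library, 8.3 ± 4.95 (SD, n = 10), or 9 ± 4.69 (SD, n = 9) without control 1, against 5 ± 1.69 (SD, n = 8), and they were also deeper. In equal draws of 1000 reads the expected number was 7.73 ± 3.90 (SD, n = 9) in controls, or 8.55 ± 3.22 (SD, n = 8) without control 1, and 4.94 ± 0.603 (SD, n = 6) in shocked libraries, leaving out the libraries with fewer reads. In draws of 448 reads, which keep every library, it was 6.22 ± 3.09 (SD, n = 10), or 6.82 ± 2.59 (SD, n = 9) without control 1, and 4.13 ± 1.16 (SD, n = 8). The ranges overlapped at every depth, and no test was made of these counts.

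**Figure D5:**
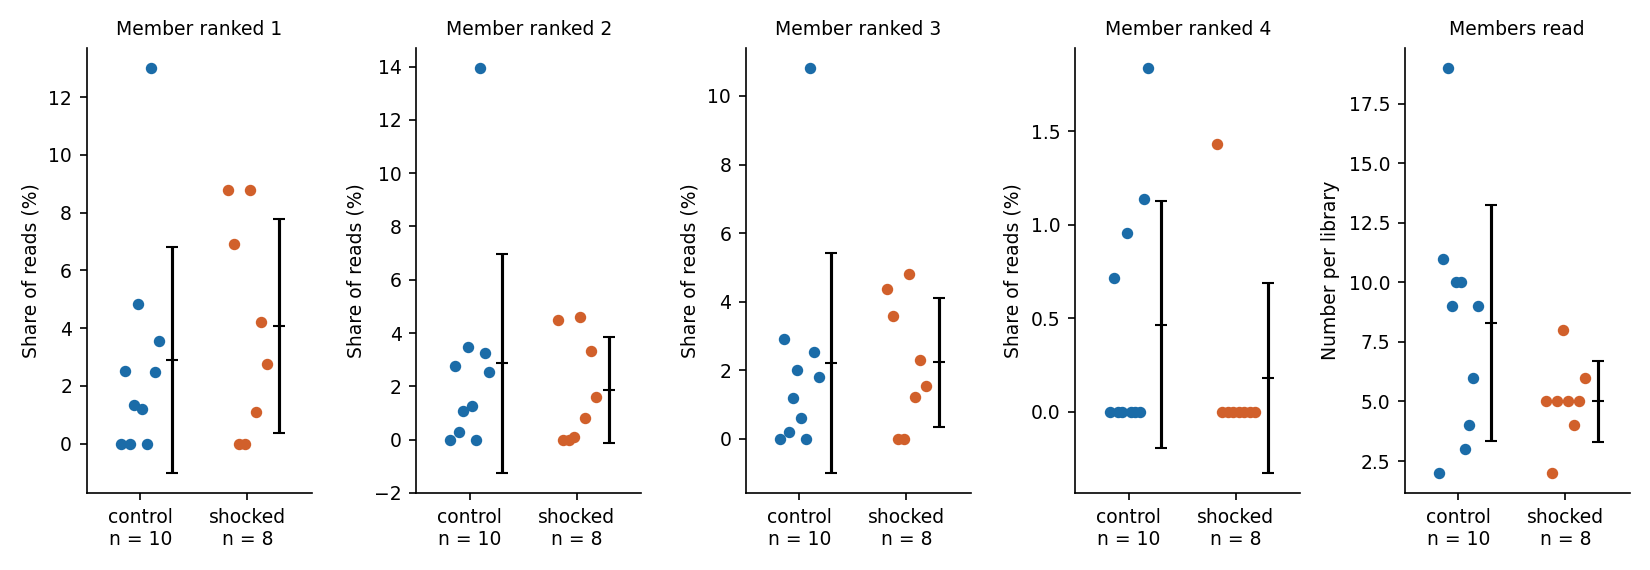
Values per colon library in control (n = 10) and shocked (n = 8) groups, with the mean and SD. The panels give the share of reads (percent) of the members ranked 1 to 4 and the number of the 38 read. Points of the groups overlap in each panel. Control 8 is highest for the members ranked 1, 2 and 3 (13.01%, 13.9% and 10.8%), and control 3 (19 features) for the number.

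Each feature was then tested between shocked and control colon with edgeR's quasi-likelihood test over all features read in at least 25% of the colon libraries (5 of 18). Of 95 features tested, 8 were called at an adjusted p under 0.05 (8.42%), 1 higher and 7 lower in shocked colon. That count ran from 2 to 15 with single libraries left out. Only 4 of the 38 were read often enough to be tested, and edgeR called 0 of these 4. None of the 4 had an unadjusted p under 0.05, and DESeq2, limma on centred log-ratios and Fisher's exact test of detection also called 0 of 4. With 4 features and a background of 8.42%, 0 calls is not a result about these features.

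The fitted changes were imprecise. Each SE below was computed from the test, as the absolute log2 fold change over the square root of its F statistic. The 95% intervals used that SE and a t quantile, and are approximate. The log2 fold change of shocked over control was -0.05 for the feature ranked 1 (SE 1.01, 95% interval -2.07 to 1.98, edgeR adjusted p = 0.985). For the feature ranked 2 it was -1.11 (SE 1.01, -3.13 to 0.91, edgeR adjusted p = 0.826), and for the feature ranked 3 it was -0.49 (SE 1.02, -2.55 to 1.56, edgeR adjusted p = 0.985). The member ranked 4 had -2.02 (SE 1.73, -5.49 to 1.46, edgeR adjusted p = 0.819). The median of these 4 was -0.80 and that of all 95 features -0.40, which moved to 0.02 when libraries were scaled by their totals alone. The intervals reach beyond 4-fold lower for each of the 4 and include 0, so the fit settles neither a change of that size nor the lack of one. The signs for the features ranked 1 and 3 flipped under scaling by totals alone, to 0.50 and 0.02, and without control 8, to 0.78 and 0.42. Without control 1 the 4 log2 fold changes were -0.20, -1.26, -0.65 and -2.17, and edgeR called 0 of 4.

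Depth moves with the groups, since the median total was 4093 reads in controls and 1824.5 in shocked libraries. With the log10 of the library total as a covariate, edgeR gave -1.52, -1.79 and -1.50 for the features ranked 1, 2 and 3 and called none of them. The member ranked 4 then had -5.23, with an unadjusted edgeR p of 0.0198 and an adjusted p of 0.157. The part of depth in the comparison was not tested.

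When the filter on rare features was dropped, edgeR tested 598 features and called 304 (50.8%). It then called 24 of the 38 (63.2%), 19 lower and 5 higher in shocked colon, of which 19 were features read in 2 libraries. The same fit called 204 of 325 features (62.8%) that were read in a single colon library, some with as few as 3 reads in all. For a feature read in 1 library no other library of its group shows the difference. The 24 members called were each read in at least 2 libraries, but the fit called members about as often (63.2%) as single-library features (62.8%). Their calls are therefore given as a property of the unfiltered fit and not as changes.

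The faecal zeros limit how high the share of these features could be there. In each faecal library 3 reads were a share of 0.0124 to 0.0638% (mean 0.0317%), and in the pooled 195120 faecal reads a share of 0.00154%. The mean colon share was 107.4 times the mean faecal floor for the feature ranked 1, and 76.2, 70.0 and 10.6 times for those ranked 2, 3 and 4. These are ratios of means and not lower bounds. The colon share of the feature ranked 1, for example, was 3.41% ± 3.75 (SD, n = 18) over libraries and 1.18% from pooled colon reads. Of the 38, 23 had a mean colon share above the mean faecal floor and 13 above the highest. For the 15 not above the mean floor, a typical single faecal library could not set their colon share apart from a faecal share of the same size. Of the 38, 35 were above the lowest floor of a single faecal library. The lowest mean colon share of the 38 was 0.00285%, against the pooled faecal floor of 0.00154%. These values describe the rule and carry no test.

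With colon control 1 among the colon libraries, the reverse set showed no such leaders. Of 357 features read in at least 2 faecal libraries, 93 (26.1%) were read in no colon library, against 38 of 273 (13.9%) in the other direction. None of the 93 was read in 9 or more of the 17 faecal libraries, the highest being 8, while 3 of the 38 were read in 13 or 14 of the 18 colon libraries. The 93 held 4.50% ± 5.68 (SD, n = 17) of faecal reads, and the highest mean share of one of them was 1.36%, compared with 3.41%, 2.42% and 2.22% for the leading 3 in colon. Faecal libraries were deeper, so the counts of the sets were not tested against each other. The reverse set was not taken without colon control 1, whose reads alone could keep a common faecal feature out of the 93.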

How the data were processed

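Raw read counts per feature are what the authors deposited, in a table converted from biom format per the file headers, neither normalized nor paired with taxa or sequences. Extraction used the DNeasy PowerSoil Pro kit, per the labels' protocols, and cutadapt was run, per the submitters' processing notes. How features were made, and any filter or removal of contaminants, is not given in the sources used here. All columns were matched to samples by title.

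The features and lists were chosen with earlier results of these data known. Shares are reads over the library total. Of 73 pairs of colon libraries within a group, none differed by as little as counting error (chi-square of at least 8.33 per degree of freedom). Treatment was tested with edgeR 4.0.16 (TMM, quasi-likelihood F test, R 4.3.3) over features in at least 25% of colon libraries, with Benjamini-Hochberg adjustment and no covariate. Alternatives were DESeq2 1.42.0 (poscounts), limma 3.58.1 (centred log-ratios, 0.5 read added), TMMwsp, library totals alone, other filters, a depth covariate and Fisher's exact test. The edgeR and correlation steps were tested on simulated data. Ranks, and correlations given without a p, used scipy 1.17.1. Expected numbers in equal draws came from the exact formula for drawing reads without replacement. Tests were two-sided. Those of correlation used purpose-written permutation code, by 100000 resamples, or by exact enumeration within the 8 shocked libraries, and were adjusted with statsmodels. The leading pair by mean share is given by code, and values by library are given for features read in at least 9 colon libraries. Figures were drawn with matplotlib 3.10.9.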

Additional observations from a re-analysis of the deposited data

Results flagged for a closer look

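The highest and lowest library of each group were checked for standing apart from the rest, in 18 combinations of measure and group, and 7 stood out. The cutoff is set for about 1 in 20 by chance. Several measures contain one another, so the 7 cannot be compared with that rate. Colon control 8, with 638 reads, accounted for 5 of the 7. Its summed share of the 38 features was 39.0%, next to 15.1% in the library below it. For the leading 3 together the values were 37.8% and 10.3%. The feature ranked 1 made up 13.01% of its reads (next library 4.82%), that ranked 2 13.9% (next 3.47%) and that ranked 3 10.8% (next 2.92%). Colon control 3 held 19 of the 38 features, and the next control 11. Shocked 14 had 9418 reads in all, and the next shocked library 3432.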

How the results depend on the processing

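The number of features depended most on the rule: 11 with at least 3 colon libraries, 4 with at least 5, and 86 when 1 faecal library was allowed. It was 32 to 42 under the other settings of the rule, and ran from 27 (without control 3) to 57 (without faeces control 3) with single libraries left out. Without the leading 3 the summed share became 2.26% in controls and 1.69% in shocked libraries. Calls among the 38 rose from 0 to 24 with no filter on rare features and stayed at 0 under the other 26 settings. Leaving out libraries of under 1000 reads let 6 of the 38 be tested, of which edgeR called 0 and 2 had an unadjusted p under 0.05.

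The log2 fold change of the feature ranked 1 turned sign in 16 of 26 settings: 0.065 with TMMwsp, 0.50 with totals alone, 0.39 with limma, 0.059 with no filter, 0.44 with a filter at 50%, 0.55 with libraries of at least 1000 reads, and -0.32 to 0.78 with single libraries left out. The feature ranked 3 turned in 4 of 26: 0.021 with totals alone, 0.18 with libraries of at least 1000 reads, and -0.71 to 0.42 with single libraries left out. The cause was not tested. The features ranked 2 and 4 stayed lower in shocked colon in every setting that could be run. Calls over all features, 8 in edgeR, were 2 without shocked 13, 15, 17 or 18, 3 without shocked 16, 4 without control 2, 3 or 4, and 15 without shocked 11. DESeq2 called 3, limma 4, and edgeR 3 with libraries of at least 1000 reads. With a filter at 50% edgeR called 0 of 40 (3 with an unadjusted p under 0.05), and Fisher's exact test 0 of 95 (13 unadjusted).

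The Spearman coefficient between share and total missed the threshold within the 8 shocked libraries, at -0.683, -0.144 and -0.683. With each colon library left out in turn, an alternative chosen after seeing the data, the 3 stayed past the threshold, at -0.910 to -0.807, -0.784 to -0.491 and -0.850 to -0.723. The overlap of the features ranked 1 and 3 was 0.629 by shares in place of presence.

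No paired analysis was possible because control and shocked colon libraries share no numbers. Depths as low as 448 reads, a lowest count of 2 and the small number of libraries limit the precision for rare features.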
